A study of Mus musculus with 11 samples.

Results

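The genes described here are 10 genes of Wnt signalling in the early limb: the ligands Wnt3, Wnt5a, Wnt6, Wnt7a, Wnt7b and Wnt10a, the R-spondin Rspo2, and the response genes Axin2, Lef1 and Dkk1. They were taken by gene name from a table of 47517 genes, and all 10 names were found. All 10 had enough reads to be tested, Wnt10a only through its highest mutant libraries. RNA-seq measured their levels in E10.5 forelimb buds of C57BL/6 mouse embryos. Mutants (Gmnn f/f; Prx-Cre) carried 2 floxed alleles of Gmnn, which encodes the replication licensing inhibitor Geminin. Controls (Gmnn +/f; Prx-Cre) carried 1 floxed and 1 wild-type allele, so the Cre transgene and a floxed allele are present in every library. The 11 libraries (5 control, 6 mutant) come from 4 litters, named A to D for this text. In litter A there were 4 libraries (controls 1, 2 and mutants 1, 2), in litter D there were 3 (control 5 with mutants 3, 4), and the others gave 1 pair each, control 3 with mutant 6 (B) and control 4 with mutant 5 (C).

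Wnt proteins bind Frizzled receptors and Lrp coreceptors and, in the canonical branch, keep β-catenin from being degraded, so that it can act with Tcf and Lef factors on target genes. In the limb bud most canonical ligands are made by the ectoderm that covers the mesenchyme, where they help to form and maintain the apical ectodermal ridge and to set the dorsal side, while Wnt5a acts in the distal mesenchyme on outgrowth and cell polarity. Prx-Cre is known to act in the limb mesenchyme, so that ectodermal ligands come from cells in which the transgene is not thought to recombine the floxed allele. A whole bud holds both tissues, and fewer cells of a type and less RNA per cell cannot be told apart in it.

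The Tcf and Lef factors bind a short core, and its 4 common forms, CTTTG followed by AA, AT, TA or TT, were searched on both strands of RefSeq promoter windows (GRCm38.p6, 250 bases before to 50 after the start). Windows were at hand for 6 of the 10 genes, and 2 of the 6 held a match, against 16.9% of 32851 windows in all. The stretches of 30 bases with the matches in capitals are shown for Dkk1 and Wnt3, the 2 genes with a match.
Dkk1 (chr19:30549587-30549616, minus strand): aagCTTTGAAatcccatcccggCTTTGTTg
Wnt3 (chr11:103774182-103774211, plus strand): cctcaagtggaCTTTGTTccaactattggg
Wnt6, Wnt7a, Axin2 and Lef1 had no match in the window used. A match describes letters and does not show that a factor binds there.

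Total counts were 14777833 to 19733288 per control library and 14721181 to 17034741 per mutant library. Gmnn was lower in mutants, with a log2 fold change of -0.67 (SE 0.10, Benjamini-Hochberg adjusted p 0.0291 by the edgeR quasi-likelihood test blocked on litter), and the groups did not overlap. This call held in 3 of 11 fits that left out 1 library (without control 1, control 5 or mutant 2), with -0.75 to -0.57 and edgeR adjusted p up to 0.139 over the 11, and it was lost without the litter block (-0.64, edgeR adjusted p 0.0501). Defining markers of the limb were present: all 8 mesenchyme markers and all 12 surface ectoderm markers were tested, as were 5 of 6 ridge markers. Of 9 neural tube markers, 8 had too few reads to be tested, with 0 to 42 reads each over all libraries. The other, Tubb3, had 34.8 to 58.9 CPM in controls and 26.2 to 54.8 CPM in mutants. Other tissues were present too. Of 6 somite markers 5 were tested, summing to 71.3 to 114 CPM in controls, as were all 6 endothelium and all 11 red blood cell markers. Of 15821 genes tested, 345 (2.18%) passed an adjusted p of 0.05, 0.702% higher and 1.48% lower in mutants. The count ran from 1 (without control 4 or mutant 5) to 850 (without control 5) as single libraries were left out. Litters B and C hold 1 pair each, so without control 3 or mutant 6 the blocked fit is in effect that without litter B. Likewise, without control 4 or mutant 5 it is in effect that without litter C. With upper-quartile scaling 43.1% of the called genes were higher, in place of 32.2%. In control 5, the mean of 5 distal Hox genes lay 2.97 log2 units below the mean of the other controls. Without control 5, 0 of the 10 Wnt genes passed the genotype test and all 10 kept the sign of their fold change. An index of transcripts with runs of at least 18 T bases (mean log2 CPM of 959 genes, CPM being counts scaled to the library total) was 4.451 to 4.823 in controls and 4.263 to 4.634 in mutants. Its part in the results was not tested. It was lower in mutants within each litter, so a fit with it as a covariate cannot fully separate it from genotype.

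None of the 10 Wnt genes passed the test between mutant and control, where 2.18% of all genes did. The edgeR test, which is two-sided, gave 2 of the 10 an unadjusted p under 0.05 (Dkk1 and Wnt10a), against 21.4% of all genes. Wnt10a met the filter on low counts only through mutants 2 and 3, where it was highest, so its p-value is no independent support. Of the 10 fold changes 6 were positive and 4 negative, with a median of 0.07 on the log2 scale, against 0.00 over all genes tested. The 2 groups overlapped for every one of the 10 genes, where 2.59% of all genes did not overlap. The direction was the same in 4 of 4 litters for 1 gene, Rspo2, against 26% of all genes. The plot of values by library shows this overlap.

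**Figure D1:**
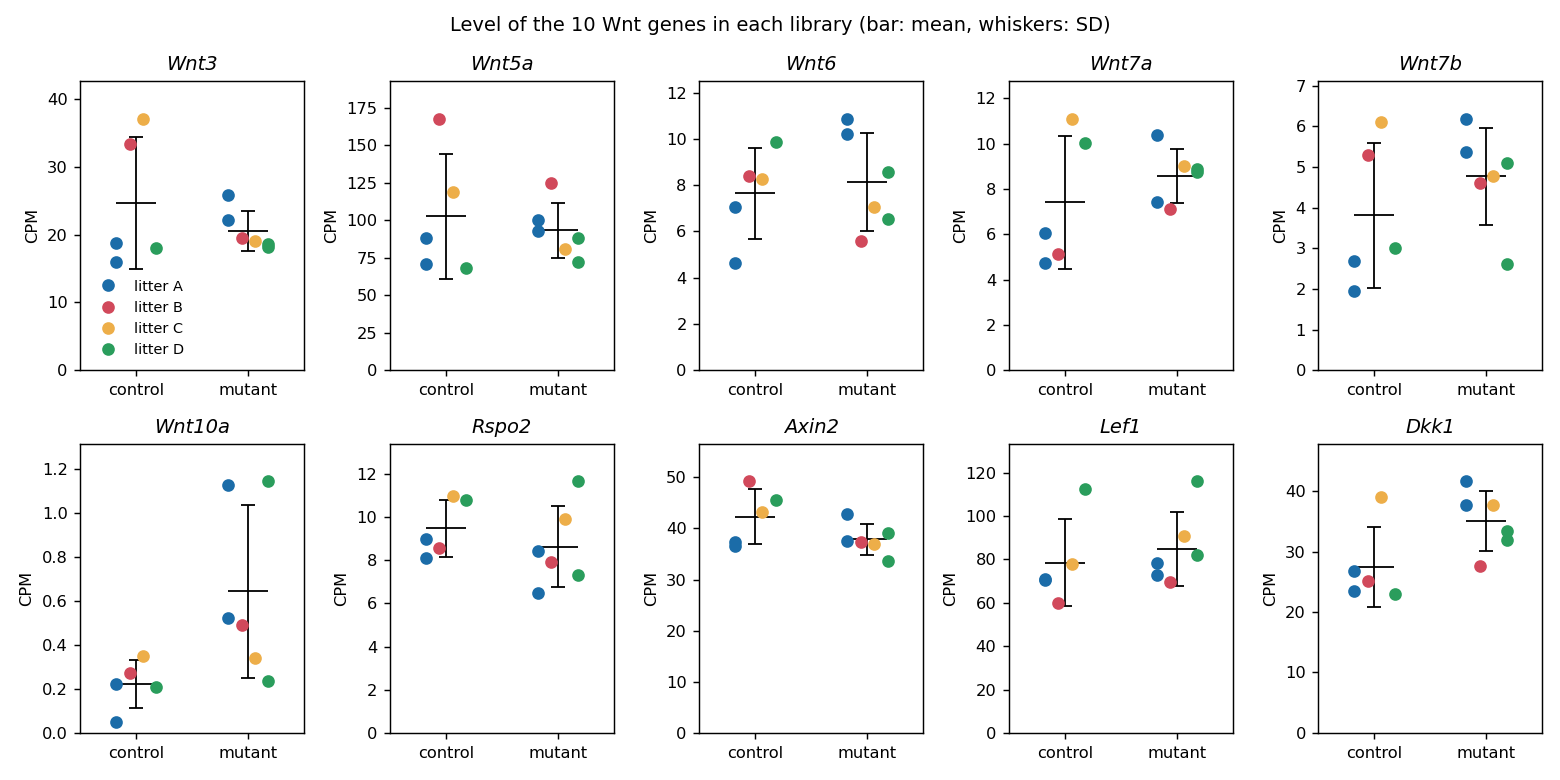
Level of each of the 10 Wnt genes in CPM (linear axes from 0) in 5 control and 6 mutant libraries; each point is a library coloured by litter, bars are means and whiskers SD. Control and mutant points overlap in every panel, and Dkk1 and Wnt10a come nearest to separating.

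Levels can be compared between genes only per length, as RPKM (CPM per kilobase of exon). In controls the order was Wnt5a (13.1 ± 5.31 RPKM, SD, n = 5), Dkk1 (11.3 ± 2.73), Lef1 (8.91 ± 2.28), Wnt3 (8.03 ± 3.19) and Axin2 (7.69 ± 0.984). The control ranges of neighbours within these 5 genes overlapped, so that their order is not set beyond the spread. Lower down came Wnt6 (3.49 ± 0.894 RPKM), Rspo2 (2.85 ± 0.398) and Wnt7a (2.34 ± 0.925), again with overlapping neighbours. The gap between Axin2 and Wnt6 exceeded the control ranges, as did the steps down to Wnt7b (0.863 ± 0.405 RPKM) and to Wnt10a (0.0897 ± 0.0443). Wnt5a stood above 76.1% of the tested genes by level per length in controls, and Wnt10a above 2.23%.

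Wnt3 (chromosome 11, 103774150 to 103817957, plus strand, mm10) encodes an ectodermal ligand needed for the apical ridge. Controls 1 to 5 had 18.85, 16.01, 33.42, 37.12 and 18.08 CPM, and mutants had 18.19 to 25.8 CPM with a median of 19.32. Controls 3 and 4 were the highest of all libraries, and the other 3 controls lay below or within the mutant range. The log2 fold change was -0.15 (95% interval -0.57 to 0.27, edgeR adjusted p 0.711). Within litters, mutants minus controls gave 0.46 log2 CPM in litter A, where both controls were low, -0.77 in litter B, -0.96 in litter C and 0.03 in litter D. Without control 3, control 4, mutant 5 or mutant 6 the fitted fold change was positive, at 0.00 to 0.04.

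Wnt7a (chromosome 6, 91363981 to 91411363, minus strand) is made by dorsal ectoderm and is known to induce Lmx1b in the mesenchyme below. Controls 1 to 5 had 4.754, 6.075, 5.125, 11.1 and 10.02 CPM, and mutants 7.117 to 10.39 with a median of 8.804. The controls fell on both sides of the mutants: 3 were below all mutants and 1 was above all of them. In the fit this gave 0.24 on the log2 scale (95% interval -0.15 to 0.63, edgeR adjusted p 0.482). Lmx1b, the dorsal readout, had a control mean of 41.6 ± 7.87 CPM (SD, n = 5) against a mutant mean of 39.5 ± 8.21 CPM (SD, n = 6; log2 fold change -0.14, edgeR adjusted p 0.362). En1, which marks ventral ectoderm and restricts Wnt7a to the dorsal side, had 3.188 to 7.98 CPM in controls and 8.267 to 13.5 CPM in mutants, without overlap, as in 2.59% of all genes. Its log2 fold change was 0.62 (edgeR adjusted p 0.152), with higher means in 4 of 4 litters. It passed with the ectoderm level described below as a covariate (0.80, edgeR adjusted p 0.027), where 7.64% of all genes did. It also passed without the filter on low counts, where 5.35% did, and was -0.05 when the T-run index was a covariate.

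Wnt6 (chromosome 1, 74771892 to 74785322, plus strand) and Wnt10a (chromosome 1, 74791516 to 74804179, plus strand) are neighbouring genes expressed in ectoderm. Wnt6 had 7.047, 4.633, 8.396, 8.249 and 9.88 CPM in controls 1 to 5 and 5.583 to 10.87 CPM in mutants, with a median of 7.799. The lowest and highest libraries, control 2 and mutant 1, were both from litter A. Over all litters the log2 fold change was 0.07 (95% interval -0.42 to 0.56, edgeR adjusted p 0.901). It was 0.87 within litter A and -0.58, -0.23 and -0.40 within litters B to D.

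Wnt10a had the largest fold change of the 10 genes on the fewest reads: 1 to 6 reads per control library and 4 to 17 per mutant library. Controls 1 to 5 had 0.2237, 0.05148, 0.2726, 0.3486 and 0.2102 CPM, and mutants had 0.2378 to 1.142 with a median of 0.5057. Mutants 2 and 3 stood above every other library, and mutants 4 and 5 lay within the control range. On the log2 scale the fold change was 1.48 (SE 0.61, 95% interval 0.15 to 2.81, edgeR unadjusted p 0.0323, adjusted p 0.193). It was not past the threshold in any of the 18 alternative fits that tested it, with log2 fold changes from 0.64 to 1.85 (edgeR or limma-voom adjusted p 0.116 to 0.859). In the other 7, among them those without mutant 2 or mutant 3, it had too few reads to be tested.

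Wnt7b (chromosome 15, 85535439 to 85581821, minus strand), another ectodermal ligand, had 2.685, 1.956, 5.289, 6.1 and 3.013 CPM in controls 1 to 5 and 2.616 to 6.189 in mutants, with a median of 4.944. Controls 1, 2 and 5 and mutant 4 were low, and the other libraries lay together between 4.601 and 6.189 CPM. Mutants differed from controls by 0.46 on the log2 scale (95% interval -0.15 to 1.07, edgeR adjusted p 0.376). Most of it came from litter A (1.28), without which it was -0.05.

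Wnt5a (chromosome 14, 28504750 to 28527447, plus strand) is the main ligand of the distal mesenchyme and signals largely without β-catenin. Its levels were 87.92, 70.89, 167.8, 118.9 and 68.32 CPM in controls 1 to 5 and 71.94 to 125 CPM in mutants, with a median of 90.64. The highest control (control 3) and the highest mutant (mutant 6) were littermates of litter B. The fold change was near 0 (log2 -0.02, 95% interval -0.31 to 0.27, edgeR adjusted p 0.947) and positive in 8 of 25 alternative fits. Some of the 8 repeat each other, as leaving out either library of litter B or C is in effect leaving out that litter. Within litters the difference was 0.29, -0.42, -0.55 and 0.22 from A to D. Wnt5a and Wnt3 were thus both lower in mutants of litters B and C and higher in litters A and D.

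Rspo2 (chromosome 15, 43020811 to 43170818, minus strand) encodes a secreted protein of the ridge that strengthens Wnt signals by keeping Frizzled receptors at the cell surface. Controls had 9.005, 8.083, 8.56, 10.98 and 10.79 CPM, and mutants had 6.483 to 11.65 with a median of 8.18. The mutants spanned the whole control range. Its log2 fold change was -0.17 (95% interval -0.47 to 0.14, edgeR adjusted p 0.534), and the differences of litter means were small, from -0.22 to -0.11. Single libraries were less close: in litter D, mutants 3 and 4 had 7.322 and 11.65 CPM, on either side of control 5 at 10.79.

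Axin2, Lef1 and Dkk1 are direct targets of β-catenin and feed back on the pathway. Axin2 (chromosome 11, 108920349 to 108950783, plus strand) encodes a scaffold of the complex that degrades β-catenin and is widely used to read the pathway's activity. It had 37.25, 36.5, 49.18, 43.16 and 45.48 CPM in controls 1 to 5 and 33.53 to 42.8 CPM in mutants, with a median of 37.4. Controls 3 to 5 lay above all mutants, and controls 1 and 2 lay among them. This gave a log2 fold change of -0.15 (95% interval -0.36 to 0.06, edgeR adjusted p 0.393), and it was 0.12, -0.40, -0.22 and -0.33 within litters A to D. It was negative in all 25 alternative fits and past the threshold in none.

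Lef1 (chromosome 3, 131110471 to 131224356, plus strand) encodes a DNA-binding partner of β-catenin. It had 71.14, 70.63, 59.81, 77.85 and 112.3 CPM in controls 1 to 5 and 69.45 to 115.9 CPM in mutants, with a median of 80.05. The highest control (control 5) and the highest mutant (mutant 4) both came from litter D. These were also the 2 libraries with the lowest distal Hox means, 0.5793 and 1.581 log2 CPM, against 2.786 to 4.658 elsewhere, and the part of this in the Lef1 values was not tested. Between genotypes the log2 fold change was 0.07 (95% interval -0.14 to 0.28, edgeR adjusted p 0.737). Of the Lef1 exon bases, 13.7% also lie in an antisense gene, Gm43352, and the counting did not use strand, so that reads of the 2 genes cannot be told apart there. The same holds for 4.6% of Wnt5a, 3.8% of Axin2 and 2.9% of Wnt7b exon bases.

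Dkk1 (chromosome 19, 30545863 to 30549665, minus strand) encodes a secreted inhibitor that binds the coreceptors Lrp5 and Lrp6. Controls 1 to 5 had 23.49, 26.77, 25.08, 39.04 and 22.98 CPM, and mutants had 27.67 to 41.61 with a median of 35.53. All 6 mutants were above 4 of the 5 controls, and control 4 was above 5 of the 6 mutants. Means were 27.5 ± 6.63 CPM (SD, n = 5) and 35.0 ± 4.98 CPM (SD, n = 6), which the fit put at 0.39 on the log2 scale (SE 0.11, 95% interval 0.15 to 0.63). This was 1.31 times the control level and did not pass the test over all genes (edgeR unadjusted p 0.00411, adjusted p 0.0761). The difference was 0.66, 0.14, -0.05 and 0.50 in litters A to D. It passed with DESeq2 (adjusted p 0.0232), where 9.96% of all genes did, without the filter on low counts (edgeR adjusted p 0.0123), where 5.35% did, and with the ectoderm level described below as a covariate (0.48, edgeR adjusted p 0.0100), where 7.64% did. In the fit without the filter, the edgeR adjusted p of Gsk3b, described below, was 7.93e-27, against 0.0464 in the reported fit. Its log2 fold change was nearly the same (-0.878 and -0.873). Passes in that fit are therefore given no weight as support, for Dkk1 or for other genes. Once the T-run index, which is lower in mutants within each litter, was a covariate the Dkk1 difference was 0.16 (edgeR adjusted p 0.758). The longest T run in Dkk1 transcripts is 8 bases.

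Differences between litters were tested next. Lef1 and Wnt5a had the smallest p-values of the 10 genes for differences between litters (edgeR quasi-likelihood test, unadjusted p 0.00208 and 0.00241, adjusted p 0.146 and 0.149). With Dkk1 (unadjusted p 0.0306), 3 of the 10 had an unadjusted p under 0.05, against 13.5% of all genes, and none passed after adjustment, where 0.0885% of all genes did. For the genotype difference itself differing between litters, 0 of the 10 and 0% of all genes passed. Unadjusted p-values under 0.05 were found for Wnt3 (0.00156), Wnt5a (0.0176) and Wnt6 (0.0241), 3 of the 10 against 4.1% of all genes, in an edgeR test on 3 residual degrees of freedom (adjusted p 0.962 for each). Without the filter on low counts Wnt3 and Wnt5a passed this test, as did 1.5% of all genes, and Wnt5a and Lef1 passed the test between litters, as did 5.41%.

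**Figure D2:**
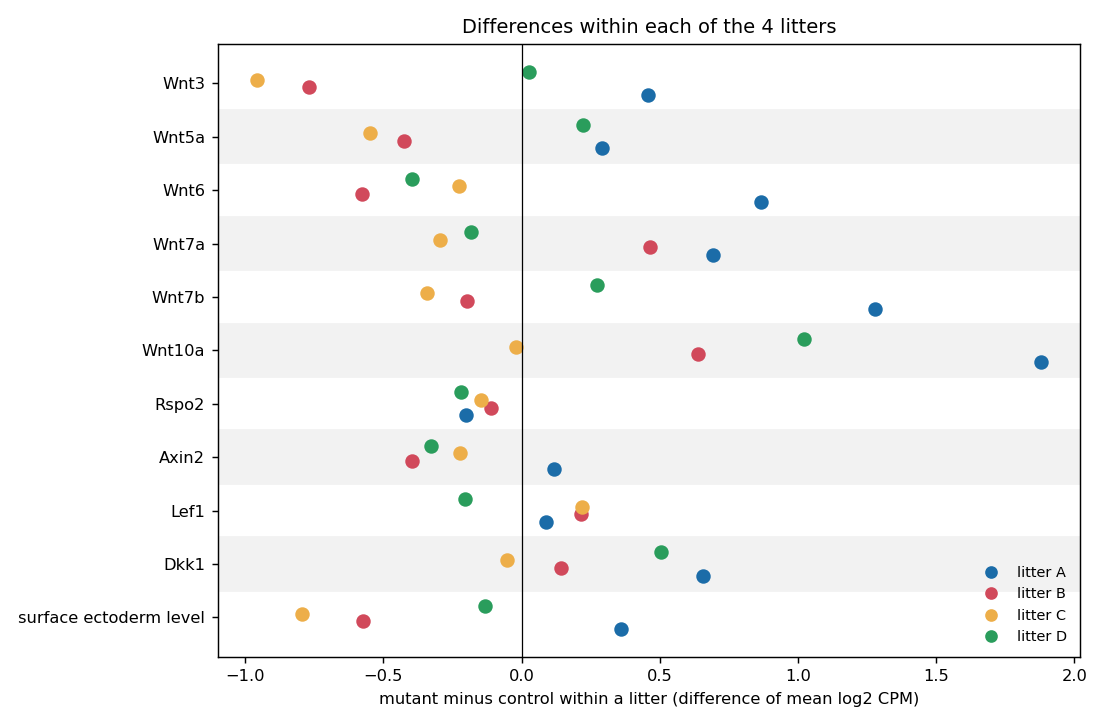
Difference of mean log2 CPM between mutants and controls within each of the 4 litters, for the 10 Wnt genes and for the surface ectoderm level (mean log2 CPM of 12 markers). In Wnt3 the 4 litters spread from -0.96 to 0.46 and the ectoderm level from -0.80 to 0.36, with litters C and B lowest in both and litter A highest.

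The ectoderm level of each bud was taken as the mean log2 CPM of 12 surface ectoderm markers such as Epcam, Cdh1 and Trp63. It was 4.209 to 5.021 in controls and 4.226 to 4.895 in mutants, with controls 4 and 3 highest. Between mutants and controls it differed by 0.36, -0.57, -0.80 and -0.13 within litters A to D. None of the 12 markers passed the genotype test, and 9 of the 12 had a negative fold change (median -0.19). The summed level of the list was 270 to 453 CPM in controls and 279 to 475 CPM in mutants. Of 10 relations tested over 11 libraries, Wnt3 had the highest correlation with the ectoderm level (Pearson r 0.80, permutation p 0.0053, adjusted p 0.053; Spearman rho 0.58, permutation p 0.0662, adjusted p 0.236). It fell to 0.43 without controls 3 and 4, the 2 libraries farthest from the median, so that it rests on those libraries. It was 0.79 after litter means were subtracted. The permutations moved values freely across litters and genotypes, so their p-values do not account for the pairing of littermates. Single litters hold 2 to 4 libraries, too few for a value within one.

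None of the 10 relations with the ectoderm level passed after adjustment. Wnt5a had r 0.57 (permutation adjusted p 0.293) and Axin2 0.54 (permutation adjusted p 0.293), and both fell to about 0.1 (0.09 and 0.12) without controls 3 and 4. Wnt7b had r 0.44, Wnt6 0.37, Dkk1 0.29, Wnt7a 0.16 and Wnt10a 0.07, while Rspo2 and Lef1 had -0.10 and -0.42. With Epcam and Cdh1 alone as the ectoderm measure, Wnt3 had r 0.88 (permutation adjusted p 0.0028) and kept 0.79 without the 2 farthest libraries. Cdh1 is also the gene whose level ran closest to Wnt3 in these same libraries (r 0.90). For Wnt3 this 2-gene measure is therefore no independent support. By rank, Wnt3 (Spearman rho 0.78) and Wnt7b (rho 0.77) passed with that measure (permutation adjusted p 0.0379 for each), while Pearson's r of Wnt7b, 0.71, did not (permutation adjusted p 0.0715). In the genotype fit with the ectoderm level as a covariate, the log2 fold change of Wnt3 was 0.00 in place of -0.15, and Wnt7a and Wnt7b had 0.36 (edgeR adjusted p 0.186) and 0.63 (edgeR adjusted p 0.153).

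**Figure D3:**
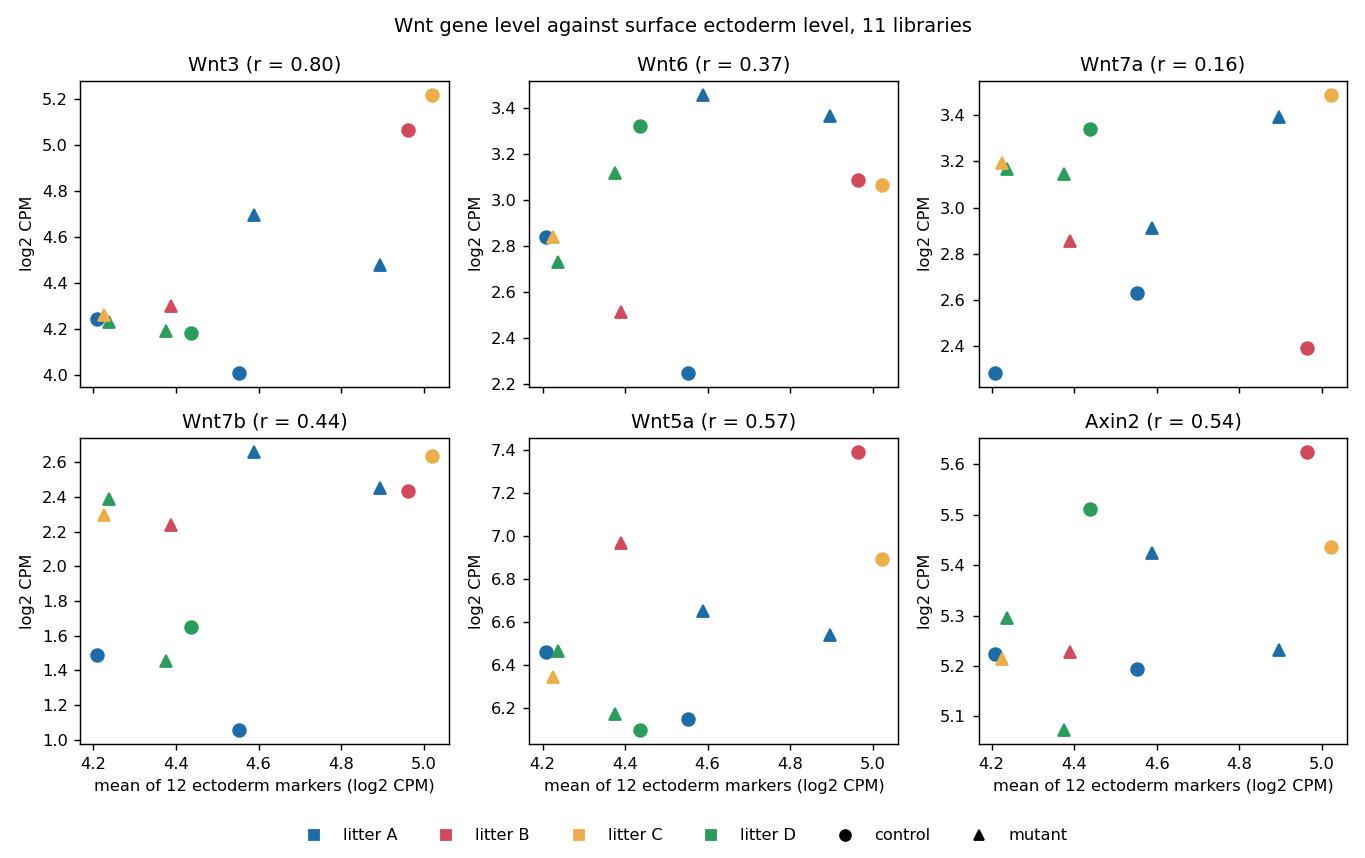
Level of 6 Wnt genes (log2 CPM) against the mean of 12 surface ectoderm markers (log2 CPM) in 11 libraries; circles are controls, triangles mutants, colours litters, and r is Pearson's over all libraries. For Wnt3 controls 3 and 4 stand at the upper right, apart from the other libraries, while Wnt7a shows little relation (r 0.16).

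The rest of the pathway was followed in 89 further genes, chosen by function, of which 83 could be tested. Of the 83, 5 (Znrf3, Wif1, Gsk3b, Tcf7l2 and Ccnd1) passed the genotype test, 4 lower and 1 higher in mutants, where 1.48% of all genes were called lower and 0.702% higher. The median log2 fold change was -0.01, against 0.00 over all genes. No further ligand passed: 9 of 13 were tested, 3 with positive and 6 with negative fold changes, and the smallest p-value was that of Wnt16 (log2 fold change -1.52, edgeR adjusted p 0.276). Wnt16 had 8 to 38 reads in controls and 0 to 15 in mutants, with the 38 in control 5 and 0 in both mutants of litter D. Without control 5 its log2 fold change was -0.41 (edgeR adjusted p 0.67), and without litter D -0.41 (edgeR adjusted p 0.668). Without the filter on low counts it was -1.53, past the threshold (edgeR adjusted p 0.0089), as were 5.35% of all genes. Wnt1 had 0 reads and Wnt3a 2 reads over all libraries. None of the 5 genes for ligand secretion and other R-spondins passed, and the smallest p-value was that of Wls, the carrier that brings Wnt proteins to the cell surface (-0.20, edgeR adjusted p 0.154, lower in 4 of 4 litters).

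Wif1, a secreted protein that binds Wnt ligands, fell in mutants. Controls 1 to 5 had 22.65, 14.67, 46.56, 22.95 and 28.31 CPM, and mutants 12.64 to 16.53 with a median of 13.83. Control 2 lay within the mutant range and the other controls above it. Mutants differed by -0.87 on the log2 scale (SE 0.17, edgeR adjusted p 0.0406), with lower means in 4 of 4 litters. The longest T run in its transcripts is 4 bases. The call was kept in 3 of 11 fits that left out 1 library (without control 2, control 5 or mutant 2), with log2 fold changes of -1.01 to -0.69 and edgeR adjusted p from 0.0221 to 0.176 over the 11. It was 1 of 13 tested genes to pass in a list of Wnt inhibitors, secreted or membrane-bound. Of the other 12, Sfrp5 had the largest fold change at low levels (0.519 ± 0.367 CPM, SD, n = 5, in controls, 1.30 ± 1.42 CPM, SD, n = 6, in mutants, log2 fold change 1.38, edgeR adjusted p 0.352). Sfrp5 passed without the filter on low counts, where 5.35% of all genes did. The remaining 11 ran from -0.17 (Sfrp1) to 0.20 (Sost).

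Znrf3, Gsk3b and Tcf7l2 fell as well. Znrf3 is a ubiquitin ligase that removes Frizzled receptors and is held back by R-spondins. It had 213.6, 213.9, 219.5, 251 and 157.4 CPM in controls 1 to 5 and 84.94 to 203 CPM in mutants (-0.61 on the log2 scale, SE 0.14, edgeR adjusted p 0.0468). Gsk3b, a kinase that marks β-catenin for degradation, had 790.4, 735.6, 880.2, 775.5 and 428.4 CPM in controls and 200.6 to 610.5 CPM in mutants (-0.87, SE 0.19, edgeR adjusted p 0.0464). Tcf7l2, a DNA-binding partner of β-catenin, had 372.5, 236.9, 369.8, 256.2 and 123.9 CPM in controls and 83.03 to 179.9 CPM in mutants (-0.93, SE 0.22, edgeR adjusted p 0.0495). In each of the 3 genes control 5 was the lowest control and mutant 5 the highest mutant, and control 5 lay within the mutant range. Of 11 fits that left out 1 library, the calls of Znrf3 and Gsk3b held in 2 (without control 5 or mutant 2) and that of Tcf7l2 in 1 (without control 5).

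These 3 genes carry long T runs, of 30, 30 and 27 bases. Among the 83 pathway genes, 7 had a run of at least 18 T bases, as did 6.06% of all genes tested. All 7 had a negative fold change (median -0.61), though Vangl1 (-0.03) and Fzd3 (-0.07) were near 0. Of the other 76, 36 were negative (median 0.02). With runs of 16 or 17 bases, Csnk1a1 (0.15) and Fzd5 (0.41) were positive, and Sfrp2 (-0.05) and Ptk7 (-0.07) negative. The share of negative fold changes among all 959 genes with such long runs was not counted. The T-run index was lower in mutants within each litter, by -0.39, -0.26, -0.14 and -0.06 from A to D, and with it as a covariate Znrf3, Gsk3b and Tcf7l2 had -0.06, -0.06 and 0.02, none past the threshold. These 3 genes are themselves among the 959 genes of the index, and 2 of 15821 genes passed in that fit. Wif1 had -1.04 and Ccnd1 0.20 in that fit, also not past it (edgeR adjusted p 0.268 and 0.589). The T runs of the 10 Wnt genes are 4 to 17 bases long, and the longest are in Wnt3 (17) and Wnt5a (15).

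**Figure D4:**
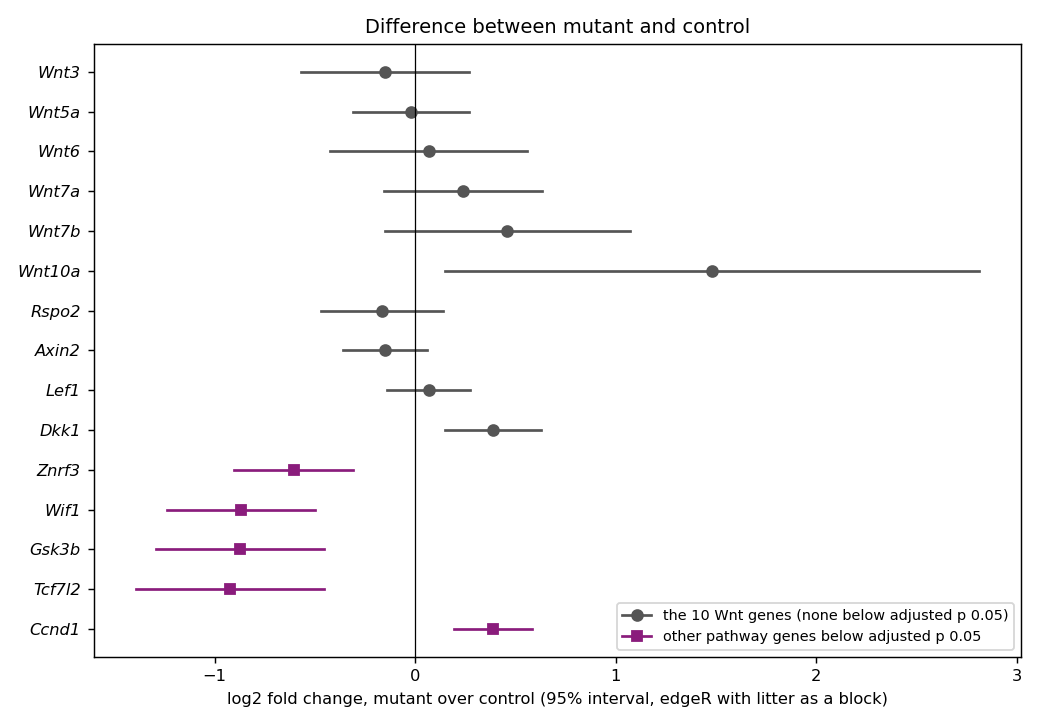
Log2 fold change of mutant over control with its 95% interval for the 10 Wnt genes (circles) and the 5 other pathway genes with an adjusted p under 0.05 (squares). The intervals of 8 of the 10 Wnt genes span 0, and those of Dkk1 and Wnt10a lie above it without passing the test over all genes.

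Ccnd1, a G1 cyclin and a known β-catenin target, rose in mutants. It had 61.91, 66.15, 71.81, 74.19 and 68.18 CPM in controls and 70.69 to 98.7 CPM in mutants, with a median of 91.03. Mutant 4 lay within the control range and the other 5 mutants above it. On the log2 scale this was 0.39 (SE 0.09, edgeR adjusted p 0.0495), with higher means in 4 of 4 litters, and the call held in 1 of 11 fits that left out 1 library (without control 5). It was 1 of 10 further response genes to pass. Of these 10, 4 had an unadjusted p under 0.05, against 21.4% of all genes. Besides Ccnd1 they were Twist1 (0.25, edgeR adjusted p 0.101), Dact1 (0.28, edgeR adjusted p 0.18, higher in 4 of 4 litters) and Tnfrsf19 (-0.20, edgeR adjusted p 0.205, lower in 4 of 4 litters). Twist1 passed without control 5, as did 850 of 15714 genes. The other 6 ran from -0.27 (Nkd2) to 0.34 (Sp5).

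**Figure D5:**
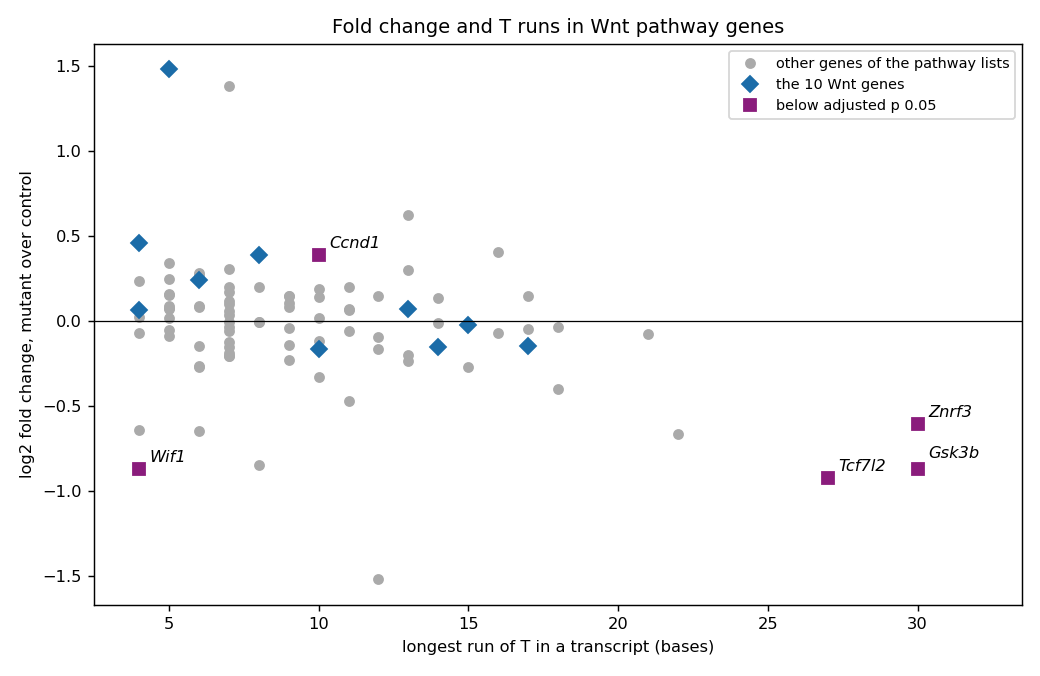
Log2 fold change of mutant over control against the longest run of T in a transcript (bases) for the 10 Wnt genes (diamonds) and 83 other pathway genes (circles, with squares for the 5 past the threshold). Znrf3, Gsk3b and Tcf7l2 sit at 27 to 30 bases and below -0.6, while Wif1 and Ccnd1 have runs of 4 and 10 bases.

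Of 20 genes for Frizzled and other receptors and their regulators, Znrf3 was the 1 that passed. Ryk, a Wnt receptor with a kinase-like domain (0.31, edgeR adjusted p 0.0672), and Lgr4, an R-spondin receptor with a T run of 22 bases (-0.66, edgeR adjusted p 0.0681), came next, followed by the Frizzled gene Fzd10 with a T run of 18 bases (-0.40, edgeR adjusted p 0.116), and the 3 are named after their values were seen. All 3 passed with DESeq2, where 9.96% of all genes did, and without the filter on low counts, where 5.35% did. Lgr4 and Fzd10 passed without control 5, where 850 of 15714 genes did. Of 8 planar polarity genes none passed, and the smallest p-value was that of Scrib (0.24, edgeR adjusted p 0.194). β-catenin itself (Ctnnb1) had a control mean of 504 ± 65.7 CPM (SD, n = 5) against a mutant mean of 552 ± 52.0 CPM (SD, n = 6; log2 fold change 0.15, edgeR adjusted p 0.263).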

How the data were processed

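The table holds unnormalized counts, as the authors deposited them, by gene name in 11 libraries. Per the file headers, the authors counted reads with featureCounts 1.4.6-p4 on mm10 and GENCODE M9, with a mapping quality of at least 10 and no option for strand. Alignment used STAR 2.5.4b, per the submitters' processing notes. The header lists 12 alignment files, and 11 libraries were analysed here. The deposited exon length of each gene (another column, in bases) was used for RPKM.

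Genotype and litter come from the labels. Genes were kept by filterByExpr, scaled by TMM (edgeR 4.0.16, R 4.3.3) and tested with the quasi-likelihood F test, two-sided, with litter as a block and Benjamini-Hochberg adjustment over 15821 genes at 0.05. The fit was also run on counts simulated without litter effects. The outcome is not given here and backs no statement above. CPM use TMM-scaled totals, and log2 CPM a prior count of 2. The block follows the design text, which matches embryos by litter. Deviations from group means correlated across genes at a median of 0.13 over 8 littermate pairs and -0.02 over 22 other pairs. Counts of any pair of libraries in a group differed beyond sampling noise (chi-square per degree of freedom at least 7.38).

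The genes and lists were chosen with earlier results of these data known. Named genes are the 10 Wnt genes, pathway genes past the threshold (or the smallest p in a list without one), Lmx1b, En1, Gmnn and the gene nearest to each Wnt gene. Ryk, Lgr4, Fzd10, Ctnnb1, Sfrp1, Sfrp5, Sost, Twist1, Dact1, Tnfrsf19, Nkd2, Sp5 and Tubb3 were named outside this rule, with their values known. Relations with the ectoderm level used 100000 permutations over all 11 libraries, not within litters. Alternatives were RLE and upper-quartile scaling, other filters, DESeq2 1.42.0, limma-voom 3.58.1, no block, removal of mitochondrial, haemoglobin and rRNA genes, each library or litter left out, and ectoderm or T-run covariates (T runs from GENCODE M21 transcripts). Precision at 14721181 to 19733288 counts per library is set by the spread between libraries for all but the lowest genes such as Wnt10a.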

Additional observations from a re-analysis of the deposited data

Results flagged for a closer look

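Within each genotype, the highest and the lowest library were compared with the others for 23 measures, 92 comparisons in all. In 4 of them the gap to the nearest library, as a share of the range, exceeded Dixon's critical value. The critical values, 0.71 for 5 libraries and 0.625 for 6, allow about 1 chance flag in 20 groups, counting both ends of a group together. Some flags among 92 comparisons are therefore due by chance. Dkk1 was highest in control 4, at 5.291 log2 CPM, where the next control had 4.749 and the lowest 4.53. Wnt7b was lowest in mutant 4, at 1.453 log2 CPM, where the next mutant had 2.239 and the highest 2.658. Gsk3b was lowest in control 5, at 8.743 log2 CPM, where the other controls had 9.523 to 9.782. The T-run index was also lowest in control 5, at 4.451, against 4.717 to 4.823 in the other controls. The reasons for these values were not tested.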

How the results depend on the processing

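Of the 10 Wnt genes 0 passed in the reported fit and in 22 of 25 alternatives. Dkk1, 1 gene, passed without the filter on low counts, with DESeq2 and with the ectoderm covariate. The fit without the filter gave Gsk3b an edgeR adjusted p of 7.93e-27 in place of 0.0464, at nearly the same fold change. The calls of that fit are therefore no added support. Over all genes the 345 calls became 1566 without the filter, 550 when 5 libraries had to reach 1 CPM, 1166 with DESeq2, 1208 with the ectoderm covariate and 2 with the T-run covariate. Without litter A, B, C or D there were 9, 3, 1 and 148, and 1 to 850 without single libraries. Fits without either library of litter B or C are in effect those without that litter. The fit with no replicate block (no litter pairing) gave 16 genes, 0 of the 10 Wnt genes and 0 pathway genes. The 5 pathway calls became 12 without the filter, 8 with DESeq2 or the ectoderm covariate, 0 with the T-run covariate, 1, 0, 0 and 1 without litters A to D, and 0 to 8 without single libraries. Without the filter 2 Wnt genes differed between litters (Wnt5a and Lef1) and 2 in the genotype by litter test. With Epcam and Cdh1 alone, 1 relation with the ectoderm level passed by Pearson's r (Wnt3) and 2 by Spearman's rho (Wnt3 and Wnt7b), in place of 0. Cdh1 is the gene nearest to Wnt3 in these libraries, so for Wnt3 that measure is no independent support.

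Signs reversed as follows, none past the threshold. Wnt5a was 0.0174 with upper-quartile scaling, 0.0504 with the ectoderm covariate, and 0.0779 and 0.105 without litters B and C. Wnt3 was 0.0040 and 0.0458 without litters B and C. Without litter A, Wnt6, Wnt7a and Wnt7b were -0.40, -0.0364 and -0.0522. With the T-run covariate Wnt6, Wnt7a, Tcf7l2 and En1 were -0.338, -0.406, 0.0245 and -0.0515. Without single libraries Wnt3 ran from -0.282 to 0.0442, Wnt5a from -0.112 to 0.103 and Wnt6 from -0.13 to 0.23. The cause was not tested. Rspo2, Axin2, Lef1 and Dkk1 kept their sign in all 25. Depth limits Wnt10a most, with 1 to 17 reads per library.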

Other observations

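For each of the 10 Wnt genes, the gene whose log2 CPM ran closest to it over the 11 libraries was sought among 9627 or 9628 named genes with a mean of at least 5 CPM. These are descriptions of 11 libraries that share litters and depth, and as the highest of many values they carry no p-value. Wnt3 ran closest to Cdh1 (Pearson r 0.90, Spearman rho 0.74), an adhesion gene of epithelia and 1 of the 12 ectoderm markers. Wnt7a ran closest to Notum (r 0.94, rho 0.90), a secreted enzyme that inactivates Wnt ligands. For the rest the nearest genes were Ttc23 for Wnt5a (r 0.96), Gpn2 for Wnt6 (r 0.89), Arhgef7 for Wnt7b (r 0.90), Cryl1 for Wnt10a (r 0.93), Srpr for Rspo2 (r 0.95), Eif4ebp2 for Axin2 (r 0.90), Amica1 for Lef1 (r 0.95) and Npl for Dkk1 (r 0.92).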
